A study of Mus musculus with 2 samples.

Results

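The regions described here are accessible chromatin peaks of mouse spleen at promoters that are poor in CpG, the dinucleotide in which mammalian DNA is methylated. For each of 20807 protein-coding genes on the autosomes, the observed number of CpG in the 1000 bp centred on the 5′ end of the gene was divided by the number expected from its C and G content. A gene with a ratio below 0.35 was called CpG-poor, and one with a ratio of 0.65 or more was called CpG-rich. A peak that came within 500 bp of the 5′ end of a CpG-poor gene was a member, which gave 355 of 25343 peaks in 1 library and 996 of 89382 in the other, or 1351 of 114725 over both lists, at 910 genes. These peaks were chosen by sequence and position only, and no measured value entered the choice.

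The study developed scFFPE-ATAC, a single-cell ATAC-seq for formalin-fixed paraffin-embedded (FFPE) tissue, in which Tn5 transposase inserts barcoded adapters into open DNA of isolated nuclei. Both libraries came from FFPE spleen of 8-week-old C57BL/6J mice with no transgene and no treatment of the animals. In the library without gradient centrifugation the nuclei were not cleared of debris on a density gradient, and in the 50 µL reaction system the volume of the Tn5 reaction was 50 µL. The number of animals, and whether the 50 µL nuclei passed a gradient, are not given in the sources used here, so more than the named step may separate the libraries. There was 1 library per condition and no replicate, so that no difference below was tested, and the 95% intervals are exact (Clopper-Pearson) and cover counting error only. Reads and cells are not in the peak lists, which leaves the depth unknown. The authors compared scFFPE-ATAC of mouse FFPE spleen nuclei prepared with and without such a gradient. Without it they saw weaker enrichment at transcription start sites, more duplicates and a smaller fraction of reads in peaks. They also could not tell cell types apart clearly in that condition. The lists covered 8.81 Mb and 38.0 Mb, and a longer list reaches more promoters of every kind. Of 15 marker genes of splenic B cells, T cells and myeloid cells, 4 had a peak at the 5′ end without gradient centrifugation. In the 50 µL reaction system 10 did. Of all genes 38.6% and 50.4% had one. Of the 15 markers 13 were CpG-poor, and of all CpG-poor genes 4.77% and 12% had one. By list the markers with a peak were 3 and 5 of 5 for B cells. For T cells they were 1 and 3 of 5 (Cd5 in both, Cd2 and Cd3e in the 50 µL reaction system). For myeloid cells they were 0 and 2 of 5 (Vcam1 and Tppp3). Cd3d, Cd3g, Csf1r, Spi1 and Spic had a peak at the 5′ end in neither library and one in the gene body in the 50 µL reaction system.

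In mammals most CpG is methylated and is lost over evolution by deamination, except in CpG islands, which escape methylation and overlap the promoters of most genes that all cells use. Promoters outside islands are commonly those of genes restricted to few tissues, and their chromatin tends to open where the sequence-specific factors of that tissue bind. A spleen is rich in B and T lymphocytes, and many receptors and signalling proteins of these cells are encoded by genes of this kind.

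The sequences below illustrate the CpG content by which these promoters and the CpG-rich class were defined. Each is 100 bases of mm10 centred on the summit of the strongest peak of the gene in the 50 µL reaction system, on the sense strand of the gene and outside all annotated exons. In the first set CG is in capitals. It holds the 3 CpG-poor genes whose strongest peaks had the highest −log10 q and met these conditions: Tpp1, encoding a lysosomal peptidase (chr7:105752238-105752337, minus strand), H2-T22, a nonclassical MHC class I gene (chr17:36042849-36042948, minus strand), and the zinc finger gene Zfp950 (chr19:61140923-61141022, minus strand).
Tpp1: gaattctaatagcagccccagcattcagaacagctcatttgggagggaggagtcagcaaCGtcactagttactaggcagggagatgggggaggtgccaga
H2-T22: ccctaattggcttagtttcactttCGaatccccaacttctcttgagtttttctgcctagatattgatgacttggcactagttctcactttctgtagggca
Zfp950: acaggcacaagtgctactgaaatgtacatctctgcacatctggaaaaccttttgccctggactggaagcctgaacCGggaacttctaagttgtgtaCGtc

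The same 100 bases at the 2 CpG-rich genes highest by the same rule are given for comparison, with CG again in capitals. They are Sh3bp4, an endocytic adaptor gene (chr1:89070221-89070320, plus strand, ratio 0.828), and the predicted gene Gm49380 (chr9:44113654-44113753, minus strand, ratio 0.774).
Sh3bp4: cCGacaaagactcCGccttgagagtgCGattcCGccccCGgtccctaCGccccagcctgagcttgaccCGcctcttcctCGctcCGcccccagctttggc
Gm49380: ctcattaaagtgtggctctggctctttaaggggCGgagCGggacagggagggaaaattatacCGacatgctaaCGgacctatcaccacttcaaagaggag
The CpG-poor windows held 1, 1 and 2 CG, and the CpG-rich windows held 9 and 4, a difference in the direction that the rule set. All 5 belonged to strong peaks, with fold enrichments (how many times the summit pileup exceeded its local background) of 8.02 at Tpp1, 10.6 at H2-T22, 7.47 at Zfp950, 10.1 at Sh3bp4 and 8.77 at Gm49380.

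A further set shows short motifs of factors of blood cells or of the interferon response within such windows, with the motif in capitals. The first is GAGGAAGT, a site of PU.1, an ETS factor of myeloid and B cells, at Icos, a costimulatory receptor of T cells (chr1:60977825-60977924, plus strand). The second is TGTGGTT, a site of RUNX factors, at Fcer2a, the low-affinity IgE receptor of B cells (chr8:3694573-3694672, minus strand), where the window is largely a CA repeat.
Icos: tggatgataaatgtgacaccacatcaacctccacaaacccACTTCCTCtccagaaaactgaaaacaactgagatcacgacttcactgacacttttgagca
Fcer2a: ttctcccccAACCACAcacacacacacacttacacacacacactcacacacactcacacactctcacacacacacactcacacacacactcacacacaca
Both matches lie on the opposite strand and so appear as their reverse complements. No CpG-poor gene of the cell type lists held the octamer ATTTGCAT in such a window outside exons. The last pattern is GAAANNGAA, the core of the interferon-stimulated response element (ISRE), at Ifi204 (chr1:173767071-173767170, minus strand) and at Igtp (chr11:58199449-58199548, plus strand), both induced by interferons. This pattern and these genes were chosen after their values were seen.
Ifi204: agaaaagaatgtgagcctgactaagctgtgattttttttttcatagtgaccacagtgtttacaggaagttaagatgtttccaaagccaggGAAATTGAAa
Igtp: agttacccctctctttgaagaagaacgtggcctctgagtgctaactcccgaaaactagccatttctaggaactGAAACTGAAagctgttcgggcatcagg

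CpG-poor genes numbered 7470 (35.9% of the genes), with a median of 8 CpG per kb and a median GC content of 45.7%, and CpG-rich genes numbered 8716, with 75 CpG per kb and 61.7% GC. A peak was present at 356 CpG-poor genes without gradient centrifugation (4.77%, interval 4.29 to 5.27%), where the background over all 20807 genes was 38.6%. In the 50 µL reaction system it was present at 898 (12%, interval 11.3 to 12.8%), where the background was 50.4%. Of the CpG-rich genes, 68.0% and 81.8% had one, so that the CpG-rich share was 14.3 times the CpG-poor share without gradient centrifugation and 6.81 times in the 50 µL reaction system. The 50 µL list reduced to the length of the other by −log10 q gave 5.84% of CpG-poor and 70.1% of CpG-rich genes, a ratio of 12. Genes and peaks differ in number because 11 CpG-poor genes without gradient centrifugation and 123 in the 50 µL reaction system had 2 or more peaks, and 11 and 26 peaks lay at 2 or more such genes.

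Within the CpG-poor class the share with a peak followed the ratio itself. Below 0.05 it was 0.200% without gradient centrifugation and 1.20% in the 50 µL reaction system, and it was higher in each following bin of 0.05, reaching 12.2% and 27.3% between 0.30 and 0.35. Just above the threshold, between 0.35 and 0.40, 15.8% and 30.6% of genes had a peak, which are values continuous with those just below it. GC content moved with the ratio. Among CpG-poor genes under 40% GC, 0.831% and 2.33% had a peak, and between 50 and 55% GC, 7.43% and 19.6% had one. The parts of CpG content and GC content in these shares were not separated.

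**Figure D1:**
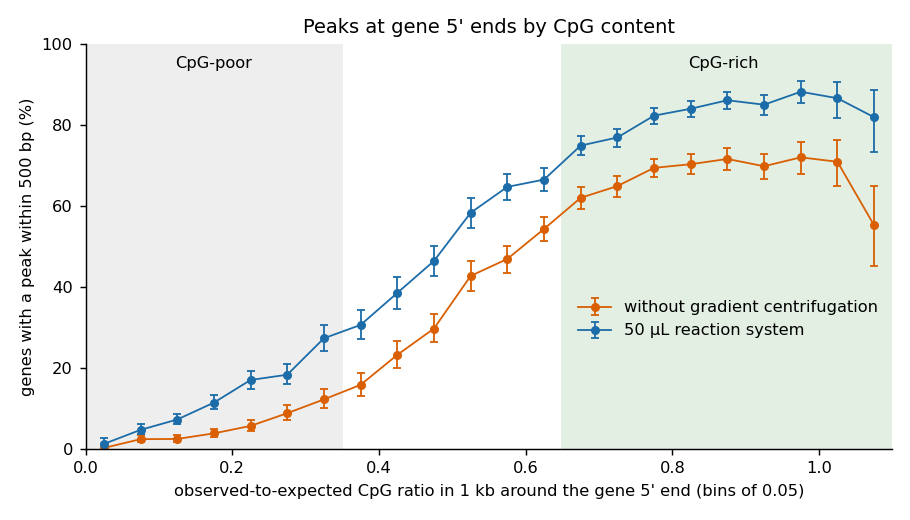
Share of autosomal protein-coding genes with a peak within 500 bp of the 5′ end (vertical axis, %) against the CpG ratio in bins of 0.05 (horizontal axis), for the library without gradient centrifugation (orange) and the 50 µL reaction system (blue), with exact 95% intervals as bars and the CpG-poor and CpG-rich ranges shaded. Both curves start near 0 and cross the threshold of 0.35 without a step, at 12.2% to 15.8% and 27.3% to 30.6%.

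Peaks lay at the start site in this class too, above a lower and uneven surround. At 50 bp upstream of the 5′ end, 2.97% of CpG-poor genes were covered by a peak without gradient centrifugation and 7.08% in the 50 µL reaction system. At 1000 bp upstream the values were 0.402% and 2.36%, and at 1000 bp downstream 1.08% and 3.94%. CpG-rich genes were covered at 55.3% and 75.4% at 50 bp upstream. In both libraries coverage of CpG-poor genes was higher upstream than downstream at equal distances out to 250 bp (2.05% against 1.42% and 6.29% against 5.19% at 200 bp), and higher downstream from 350 bp to 2000 bp. By gene, the summit of the strongest member peak lay a median of 29.0 bp upstream of the 5′ end without gradient centrifugation and 23.5 bp upstream in the 50 µL reaction system. Summits within 100 bp of the 5′ end made up 39.0% and 28.2%, and summits beyond 500 bp, whose peaks reach the window only by an edge, made up 11.5% and 23.2% (5.06% and 8.22% for CpG-rich genes). Of the summits in the 50 µL reaction system, 30.2% lay in an annotated exon, 28.0% in an intron and 41.9% outside genes.

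**Figure D2:**
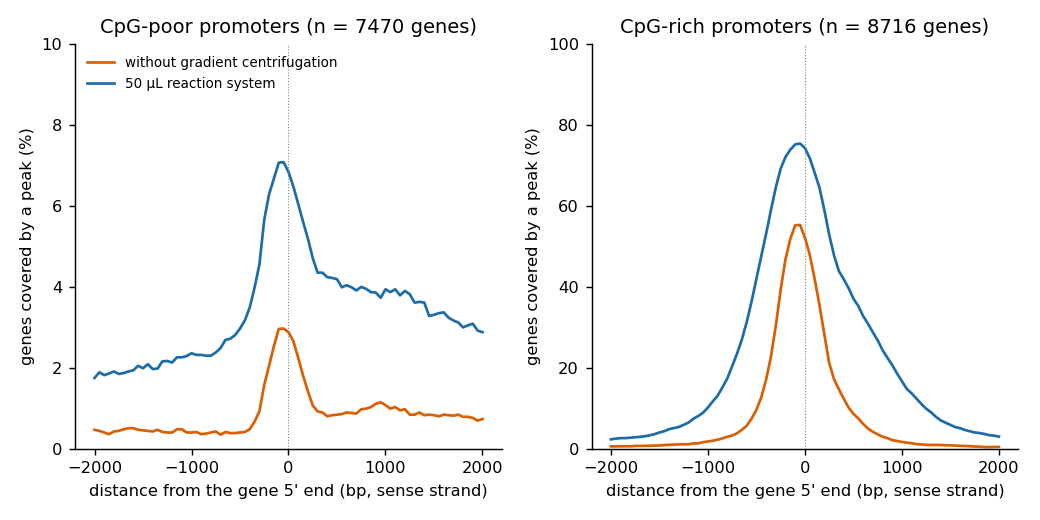
Share of genes covered by a peak (vertical axes, %) against distance from the 5′ end in bp on the sense strand (horizontal axes) for CpG-poor genes (left, axis to 10%) and CpG-rich genes (right, axis to 100%), in the library without gradient centrifugation (orange) and the 50 µL reaction system (blue). Coverage of CpG-poor genes is 2.97% and 7.08% at 50 bp upstream, higher upstream than downstream out to 250 bp, and higher downstream from 350 bp on.

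The 1 kb around the summit itself had a ratio below 0.35 for 86.5% of members without gradient centrifugation and for 84.7% in the 50 µL reaction system, and a ratio of 0.65 or more for 3.38% and 5.32%. The rule chose low-ratio sequence close to these summits, and of all autosomal peaks 54.2% and 75.7% had a ratio below 0.35. Few members were also within 500 bp of the 5′ end of a CpG-rich gene of any type, 3 of 355 and 17 of 996. CpG-poor genes whose 5′ end lay 501 to 1500 bp from that of a CpG-rich gene had a peak in 20 of 38 cases in the 50 µL reaction system (52.6%, interval 35.8 to 69.0%), which fell with distance to 4.74% of 2828 genes beyond 200 kb. Without gradient centrifugation these distances gave 4 of 38 genes (10.5%) and 65 of 2828. Counting only peaks whose own surround had a ratio below 0.35, an alternative added after seeing the data, left 4.15% and 10.3% of CpG-poor genes with a peak.

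The members were weaker and narrower than promoter peaks of the CpG-rich class. Median fold enrichment was 4.94 (quartiles 4.15 and 5.93) against 5.60 without gradient centrifugation and 3.45 (quartiles 2.78 and 4.37) against 4.27 in the 50 µL reaction system. Median widths were 314 bp against 423 bp in the former and 444 bp against 796 bp in the latter. Ranked by −log10 q within their own list, members had a median percentile of 47.9 against 67.7 and of 66.7 against 87.5. The top 10% of each list by that rank included 7.32% of members without gradient centrifugation and 16.0% in the 50 µL reaction system, compared with 20.3% and 42.7% of CpG-rich promoter peaks. Set beside all autosomal peaks, members in the 50 µL reaction system were wider (median of all peaks 326 bp), whereas without gradient centrifugation the medians were close (298 bp). Annotated repeats covered more than 50% of the 200 bp around the summit in 3.94% of members and 3.98% of all autosomal peaks without gradient centrifugation, and in 7.13% and 17.4% in the 50 µL reaction system.

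Genes found without gradient centrifugation were nearly all found again. Of the 356, 344 (96.6%, interval 94.2 to 98.2%) also had a peak in the 50 µL reaction system, while 38.3% of the 898 found there were found without gradient centrifugation. For CpG-rich genes these shares were 99.6% and 82.8%. Counted by peak, 96.6% of members without gradient centrifugation and 40.3% in the 50 µL reaction system overlapped a peak of the other list. Of all autosomal peaks 95.3% and 26.4% did, so the return of members was not below that of peaks at large. The lower return of CpG-poor than of CpG-rich promoters was also present at equal rank. Of 50 µL peaks between the 75th and 90th percentile by −log10 q, 63.3% of members (interval 56.7 to 69.6%) and 80.2% of CpG-rich promoter peaks (interval 78.4 to 81.9%) overlapped a peak of the other list. Among all autosomal peaks of that rank 58.8% did. At the 344 shared genes the strongest peaks overlapped in 328 cases, and the summits were within 100 bp of each other at 233. Fold enrichment was higher without gradient centrifugation at 285 of them (82.8%), with medians of 4.98 and 4.07. Medians over all autosomal peaks were 5.24 and 3.28, so the direction of this shift was not particular to members. Whether fold enrichment follows library quality was not tested, and the authors describe poorer quality without the gradient. The peaks at the 344 genes were wider in the 50 µL reaction system at 325 of them. Across these genes, which share both libraries and are not replicates, Spearman's rho of the fold enrichments was 0.564. The 554 genes found only in the 50 µL reaction system had weaker peaks there, at a median enrichment of 3.28 and a percentile of 57.3, against 83.7 for the shared genes.

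**Figure D3:**
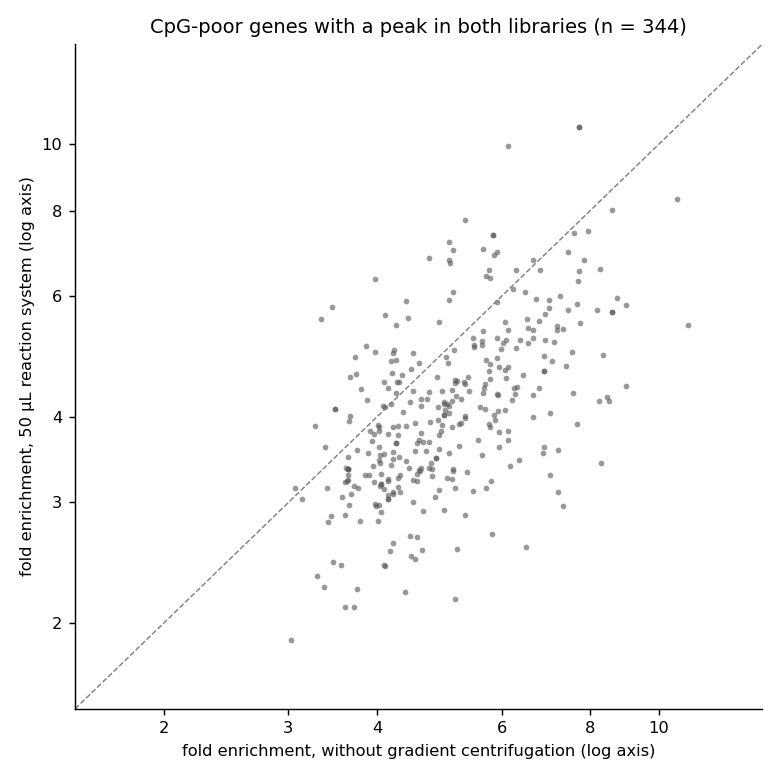
Fold enrichment of the strongest member peak of each of 344 CpG-poor genes without gradient centrifugation (horizontal, log axis) and in the 50 µL reaction system (vertical, log axis), with 1 point per gene and equality as a dashed line. Most points (285) lie below the line. Median fold enrichment over all autosomal peaks was also higher without gradient centrifugation (5.24 against 3.28).

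The strongest members were a mixture of lysosomal, immune, zinc finger and little-studied genes. Tpp1 had the most significant peak in the 50 µL reaction system, on chromosome 7 from 105751888 to 105752519 (fold enrichment 8.02, −log10 q of 92.3), and its peak without gradient centrifugation also ranked among the 10 strongest members (8.59 and 30.9). Next was the peak between H2-T22 and the oppositely oriented predicted gene Gm6034, on chromosome 17 from 36042712 to 36044112, with fold enrichments of 7.71 without gradient centrifugation and 10.6 in the 50 µL reaction system, the highest of any member there. Without gradient centrifugation the leading gene was Mterf2, a mitochondrial transcription factor, whose peak ran from 85127915 to 85128397 on chromosome 10 (enriched 11.0-fold, −log10 q of 50.4). The same gene had a fold enrichment of 5.44 and a −log10 q of 64.7 in the 50 µL reaction system.
It was followed by Glipr1 (fold enrichment 8.50 and 4.22 in the same order of libraries), by the zinc finger gene Zfp456, which shares its peak with the overlapping predicted gene Gm28041 (8.58 and 5.68), and by Ifi206, of the interferon-inducible p200 family (8.33 and 4.93). Further down were the predicted gene Gm14548 (10.6 and 8.31), Gm45871 (7.56 and 4.34), Zfp457 (7.21 and 3.58) and Zfp748 (7.73 and 5.49), whose peak lies beyond the window by its summit and is also within 500 bp of a CpG-rich gene. Zinc finger genes of the same cluster are near copies of one another, and reads that map to several places could have been split between them.
In the 50 µL reaction system Cdk14, a cyclin-dependent kinase gene (5.12 without gradient centrifugation, 7.01 in the 50 µL reaction system), Zfp950 (7.95 and 7.47) and Sbk2, a kinase gene (6.12 and 9.95), followed. Sil1, encoding a chaperone cofactor of the endoplasmic reticulum, Ctbs, a lysosomal chitobiase, and C8g, a complement subunit, had no peak at the 5′ end without gradient centrifugation and fold enrichments of 6.93, 7.26 and 7.23 in the 50 µL reaction system. At these 3, and at Irf9, a component of the interferon-activated complex ISGF3 (7.45 and 6.97), the 50 µL summit lay 668 to 777 bp downstream of the 5′ end of the gene record. The 1 kb around it had a ratio of 0.744 at Sil1, 0.564 at Ctbs, 0.551 at C8g and 0.269 at Irf9. Their peaks thus entered by an edge, and those of the first 3 were not poor in CpG by themselves.

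Among the 9 cell type and tissue lists, the B and T cell lists had the largest shares. Of 30 CpG-poor genes of the B cell list, 13 had a peak without gradient centrifugation (43.3%, interval 25.5 to 62.6%), and 23 had one in the 50 µL reaction system (76.7%, interval 57.7 to 90.1%), against 4.77% and 12% of all CpG-poor genes. For the T cell list the counts were 5 (16.7%, interval 5.64 to 34.7%) and 22 (73.3%, interval 54.1 to 87.7%) of 30. The lists were written with earlier results of these data known, and the shares are descriptions.
Among B cell genes, Siglecg, an inhibitory sialic acid receptor, had fold enrichments of 4.09 without gradient centrifugation and 4.50 in the 50 µL reaction system, where its peak was 1786 bp wide. H2-Aa, an MHC class II chain, had 4.29 and 3.88, Fcer2a 3.67 and 4.57, and Pou2af1, a coactivator of octamer-binding factors, 3.60 and 3.21. H2-Ab1, the partner chain of H2-Aa, had a peak in the 50 µL reaction system only (3.63). Bank1, a scaffold protein of B cell receptor signalling, had 4.63 and 2.56, and Cd79b, a signalling chain of the B cell receptor, 4.09 and 2.43. The B cell list genes with a 5′ end peak in neither library included the chemokine receptor genes Ccr6 and Cxcr5, and Ciita, the activator of MHC class II genes, all of which had a peak elsewhere in the gene or at another annotated start in the 50 µL reaction system.
Among T cell genes, Lat, the adaptor that links the T cell receptor to its downstream enzymes, had the strongest peak in both libraries, on chromosome 7 from 126369449 to 126369884 in the 50 µL reaction system (fold enrichment 7.33 without gradient centrifugation, 5.38 in the 50 µL reaction system). Cd5, an inhibitory surface receptor, had 4.89 and 3.76, Txk, a Tec family kinase, 4.69 and 3.57, and the lymph node homing receptor Ccr7 3.76 and 3.15. Gimap3, a GTPase of lymphocyte survival with a ratio of 0.0694, had 4.09 and 3.53. Themis, which acts in thymocyte selection, had a peak in the 50 µL reaction system only (4.66). The 8 T cell list genes without a 5′ end peak there, Cd3d, Cd3g, Cd4, Cd27, Cd28, Cd226, Ms4a4b and Pdcd1, all had one elsewhere in the gene or at another start.

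Genes of natural killer and cytotoxic cells had 1 of 16 peaks without gradient centrifugation and 8 of 16 in the 50 µL reaction system (50.0%, interval 24.7 to 75.3%). The 1 present in both was Klrd1, encoding CD94 (fold enrichment 5.95 and 4.73). Il2rb, a chain of the interleukin receptors of these cells (6.29), Cst7, a protease inhibitor (5.58), Il18rap (6.21) and Prf1, encoding perforin (4.38), appeared in the 50 µL reaction system only. The genes named were those with the highest −log10 q, and over all 8 the fold enrichment there ranged from 2.47 to 6.29. In the myeloid list 3 and 12 of 46 genes had a peak (6.52% and 26.1%). Tlr4, the receptor of bacterial lipopolysaccharide, had fold enrichments of 6.21 and 4.24, the inhibitory Fc receptor gene Fcgr2b 4.02 and 3.89, and Ctss, a lysosomal protease of antigen presentation, 5.15 and 2.17. Lilrb4a (5.29), Fcgr1 (5.26) and Cd68 (2.97) had a peak in the 50 µL reaction system only. The other 43 and 34 myeloid list genes had no peak at the 5′ end, among them the marker genes Csf1r, Spi1 and Spic. Peaks were called over all cells of a library, so whether the peaks at myeloid list genes came from myeloid cells was not tested. Dendritic cell genes had 0 and 2 of 8, the latter being Itgax (2.89) and Siglech (2.86).
Erythroid genes had 0 and 4 of 14, with −log10 q between 4.46 and 9.50. They were Hbb-bt, a beta globin gene (3.49), Epb42 (3.15), Trim10 (2.72) and Car1 (2.64). Megakaryocyte genes had 0 and 1 of 13 (P2ry12, 2.71). Of 19 endothelial and stromal genes, Icam2, an adhesion molecule (4.90 and 3.59), had a peak in both libraries, and Pecam1 (2.67) and Madcam1 (2.61) in the 50 µL reaction system only. Of 40 CpG-poor genes of other tissues, 2 and 5 had one (5.00% and 12.5%), which is near the share of all CpG-poor genes. Those 5 were Ckm, the muscle creatine kinase (5.65 and 7.02, at different peaks), Mog, of myelin (5.32 and 2.88), and, in the 50 µL reaction system only, Prm1 (5.56), Gfap (4.68) and Cela1 (2.45). The Ckm peak without gradient centrifugation is also within 500 bp of a CpG-rich gene. Its summit lay upstream of the window, where the ratio was 0.714. The 50 µL summit at Ckm lay 876 bp downstream, where the ratio was 0.460. Prm1, and Mog without gradient centrifugation, also had summits beyond the window. The intervals of the smaller lists are wide, that of the dendritic list reaching from 3.19 to 65.1% in the 50 µL reaction system.

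Gene families defined by symbol showed the same range. Guanylate-binding and immunity-related GTPases, which act against intracellular pathogens and are induced by interferons, had a median ratio of 0.0855, against 0.165 for all CpG-poor genes, and a peak at 8 of 14 genes without gradient centrifugation (57.1%) and at 13 of 14 in the 50 µL reaction system (92.9%, interval 66.1 to 99.8%). Some of these genes share a peak, and the counts rest on 5 and 10 distinct peaks. Gimap GTPases had 6 and 7 of 8, and the Ifi, Ifit and Ifitm genes, most of them induced by interferons, 10 and 15 of 26 (38.5% and 57.7%).
Examples chosen after their values were seen were Gbp10, with only 2 CpG in its 1 kb and a fold enrichment of 8.11 in the 50 µL reaction system, Ifi203, with 3 CpG (5.84 without gradient centrifugation, 7.38 in the 50 µL reaction system), Ifi209, with 3 CpG (5.39 and 4.37), and Gimap8, with 10 CpG (5.78 and 3.87). The summit at Gbp10 lay 592 bp upstream of the 5′ end. Such genes are close paralogs in clusters, and the authors set a minimum read length to limit fragments that map to several places, which does not separate near-identical copies longer than a read.
MHC genes had 8 and 11 of 21 (38.1% and 52.4%), Fc receptors and their relatives 3 and 9 of 15, Cd-named surface antigens 6 and 30 of 61, schlafens 1 and 5 of 9, interleukins 1 and 9 of 31, and interleukin receptors 1 and 8 of 22. Zinc finger genes named Zfp had 11 and 17 of 68 (16.2% and 25.0%), with a median fold enrichment of 6.65 without gradient centrifugation, above the 4.97 of all CpG-poor genes with a peak. Solute carriers (4 and 13 of 108) and cytochromes P450 (1 and 5 of 82) were at or below the share of all CpG-poor genes.
Families of specialised epithelia and sensory neurons were nearly empty. Keratins and keratin-associated proteins (84 genes), defensins (63), kallikreins (25) and vomeronasal receptors (327) had 0 peaks in either library, with upper limits of 4.30%, 5.69%, 13.7% and 1.12%. Of 1119 olfactory receptor genes 1 and 6 had a peak. Olfactory, vomeronasal and taste receptors formed 19.9% of the CpG-poor class, and without them 5.93% and 14.9% of CpG-poor genes had a peak. Genes in no list and no family (5029) had a peak in 5.45% and 13.4% of cases, so that 274 of the 356 genes and 675 of the 898 lay outside all groups named here.

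**Figure D4:**
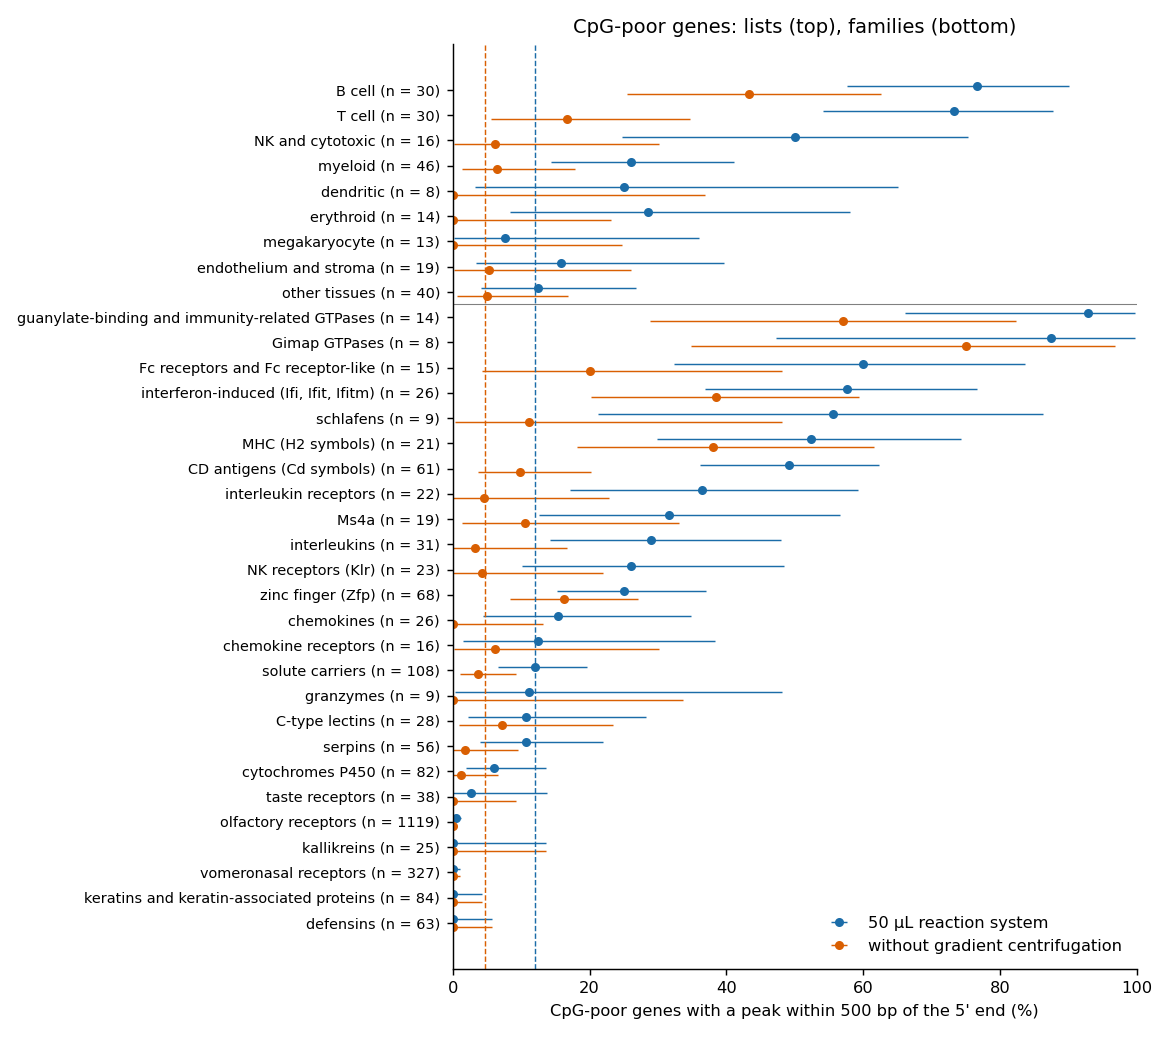
Share of the CpG-poor genes of each list (upper 9 rows) or family with at least 8 such genes (lower rows) with a peak at the 5′ end (horizontal axis, %) in the 50 µL reaction system (blue) and without gradient centrifugation (orange), with exact 95% intervals. Dashed lines mark the shares of all CpG-poor genes, 12% and 4.77%, and B cell genes (76.7% and 43.3%), GTPases and Gimap genes lie far to their right.

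Only 12 CpG-poor genes (0.161%) had a peak without gradient centrifugation and none in the 50 µL reaction system. Their median percentile was 24.7 in their list and their highest −log10 q was 12.3. Of CpG-rich genes 21 (0.241%) had a peak only without gradient centrifugation. Of the genes with ratios between the CpG-poor and CpG-rich limits 14 (0.303%) did. As a share of all genes, the count was thus low in every class. Among genes with a peak without gradient centrifugation, 96.6% of CpG-poor genes also had one in the 50 µL reaction system. The shares were 99.2% for genes between the limits and 99.6% for CpG-rich genes, so on this base the CpG-poor class lost most. The first 5 of the 12 CpG-poor genes were Pcp4, a calmodulin-binding protein of neurons (fold enrichment 6.60), Ripor3 (5.85), Herc6 (4.02), Gm17349 (5.45) and Apol8 (5.82). A missing peak does not show closed chromatin, since the 5′ end of a gene record can be that of a minor transcript. Of CpG-poor genes without a peak at the 5′ end, 7.07% without gradient centrifugation and 10.4% in the 50 µL reaction system had one at another annotated start, and 16.9% and 26.3% anywhere in the gene or at another start.

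Motifs were counted on both strands in the 200 bp around member summits and set beside all autosomal peaks and CpG-rich promoter peaks. The ETS site without CpG, CAGGAAG, was present in 24.5% of members without gradient centrifugation (interval 20.1 to 29.3%), in 13.9% of all peaks and in 8.49% of CpG-rich promoter peaks. In the 50 µL reaction system the shares were 17.5% (interval 15.2 to 20.0%), 11.1% and 7.77%. The PU.1 site shown at Icos was present in 10.1% of members, 5.07% of all peaks and 1.57% of CpG-rich promoter peaks without gradient centrifugation, and in 7.13%, 3.78% and 1.66% in the 50 µL reaction system. For both motifs the member intervals lay above the share of all peaks in both libraries.
The RUNX site shown at Fcer2a was near the share of all peaks, 7.32% against 6.23% and 6.63% against 6.22%, and above the CpG-rich shares of 2.46% and 2.27%. ISRE cores were in 11.8% of members without gradient centrifugation (interval 8.66 to 15.7%, all peaks 6.75%) and in 8.23% in the 50 µL reaction system, where all peaks had 7.56%. Among the peaks of the Ifi, Ifit and Ifitm genes, 5 of 9 and 5 of 17 held the ISRE core. In the T cell list CAGGAAG was in 1 of 5 peaks without gradient centrifugation and 10 of 24 in the 50 µL reaction system, and the RUNX site in 0 of 5 and 6 of 24. In the B cell list CAGGAAG was in 2 of 13 and 3 of 23, and the RUNX site in 0 of 13 and 1 of 23. These lists and motifs were picked after the values of all groups were seen. The octamer was rare in members (2.54% and 1.41%) and in all peaks (1.77% and 1.52%). Motifs that contain CG, such as GC boxes (GGGCGG, 15.9% of members and 52.8% of CpG-rich promoter peaks in the 50 µL reaction system), must be fewer where CpG is few, which the rule set. Of the 14 motifs, 9 were more frequent in members than in CpG-rich promoter peaks in both libraries, and none of these requires CG. Median GC content in the 1 kb around the summit was 49.6% and 50.1% in members, and 58.8% and 59.5% in CpG-rich promoter peaks. Over all autosomal peaks it was 49.1% without gradient centrifugation and 45.5% in the 50 µL reaction system. The part of base composition in the excess over CpG-rich promoter peaks or over all peaks was not tested.

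**Figure D5:**
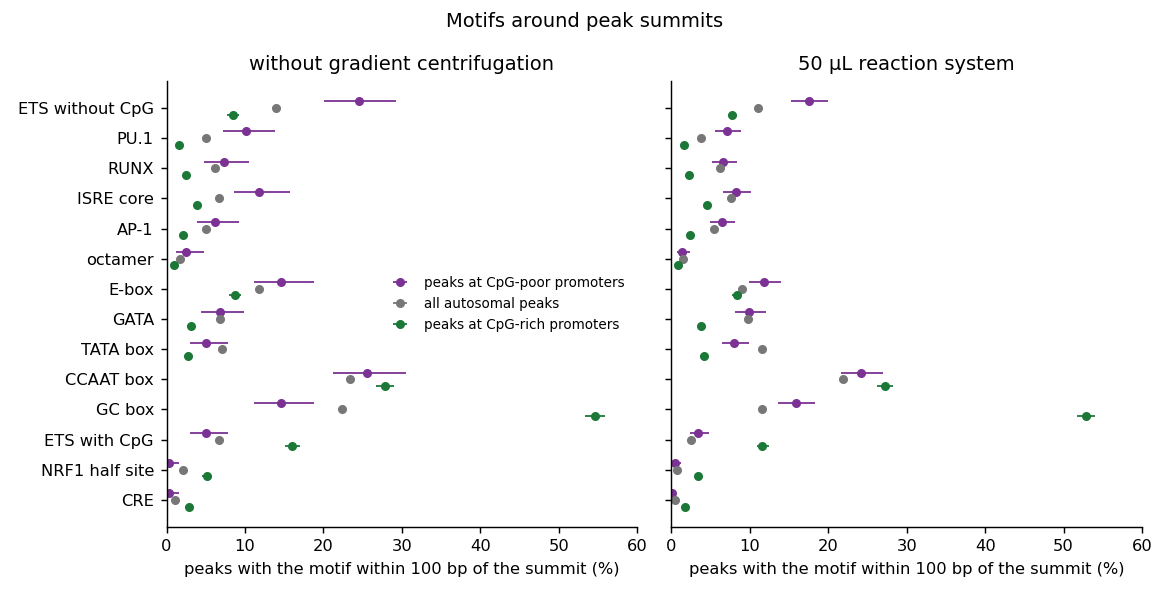
Share of peaks with each motif in the 200 bp around the summit (horizontal axes, %) without gradient centrifugation (left) and in the 50 µL reaction system (right), for members (purple), all autosomal peaks (grey) and CpG-rich promoter peaks (green), with exact 95% intervals. Members exceed both other sets for the ETS site without CpG (24.5% and 17.5%) and the PU.1 site (10.1% and 7.13%), and CpG-rich peaks exceed members for GC boxes and the other motifs with CG.

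CpG-poor promoters with a peak held several motifs more often than those without, both with and without CG. In the 200 bp centred on the 5′ end, CAGGAAG was present at 20.3% of the 910 CpG-poor genes with a peak in at least 1 library (interval 17.8 to 23.1%) and at 10.4% of the 6560 with none (interval 9.65 to 11.1%), against 9.08% of all promoters of the same length. The PU.1 site was present at 7.58% (interval 5.95 to 9.50%) and 3.14% (interval 2.73 to 3.59%), against 2.35% of all promoters. Restricted to promoters of 45 to 55% GC, the shares were 20.2% and 14.3% for CAGGAAG and 6.90% and 2.48% for the PU.1 site, with intervals that do not overlap. The GC box was present at 17.7% of the genes with a peak and 6.19% of those with none (17.7% and 8.93% within 45 to 55% GC), and CCGGAAG, an ETS site that contains CpG, at 3.96% and 1.25% (5.05% and 1.83%). Of all promoters 40.8% held the GC box and 9.77% CCGGAAG. The median CpG ratio was 0.244 at CpG-poor genes with a peak in both libraries and 0.220 at those found only in the 50 µL reaction system. It was 0.157 at those with a peak in neither. The restriction on GC content did not match this ratio, and its part in the motifs with CG was not tested.
In the same 200 bp the RUNX site was about as frequent at CpG-poor genes with a peak as at those with none (5.60% and 5.38%). CCAAT (24.3% and 28.5%) and AGATAA, a site of GATA factors (7.69% and 10.3%), were less frequent at genes with a peak. The TATA box was also less frequent at genes with a peak. TATAAA began 20 to 40 bases upstream of the 5′ end on the sense strand at 2.20% of the CpG-poor genes with a peak (interval 1.35 to 3.37%) and at 5.55% of those with none (interval 5.01 to 6.13%). It did so at 6.39% of the latter with the receptor genes left out, and at 0.769% of CpG-rich genes and 2.48% of all. Within 45 to 55% GC the values were 2.19% and 5.45%. A match is a run of letters and shows no binding.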

How the data were processed

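Both libraries were of mouse spleen. As the study's methods state, the authors mapped reads to mm10 with BWA, removed duplicates with their own script, called peaks per library with MACS2 at a q-value of 0.01 without a model, and removed blacklisted regions. The deposited lists give for each peak the fold enrichment (a ratio over local background) and the −log10 p-value and −log10 q-value that the authors' MACS2 run wrote, with its summit. No value was rescaled. Cell barcodes and reads were not used here, so depth is unknown and intervals cover counting error only.

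Gene 5′ ends and exons came from GENCODE vM21, and bases from mm10. The CpG ratio was taken over 1000 bp. A peak counted at a gene if it overlapped the 500 bp on either side by at least 1 bp, and a gene with several peaks was given the one with the highest −log10 q. Motifs were exact matches on both strands. Genes named are the 10 with the highest −log10 q in each library, up to 5 (50 µL) and 3 (without gradient centrifugation) of each list, and the first 5 found only without gradient centrifugation, besides marker genes and those said to be chosen after their values were seen. The members and lists were chosen with earlier results of these data known. The ISRE core and 1 alternative were added after seeing the data. Alternatives varied the peak threshold, list length, overlap, promoter window, CpG window, ratio limit, start site and gene set. With 1 library per condition there was no test. The counting steps were checked on simulated data. Python 3.11.15, numpy 2.4.6, pandas 2.3.3, scipy 1.17.1 (95% Clopper-Pearson intervals) and matplotlib 3.10.9 were used.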

Additional observations from a re-analysis of the deposited data

Results flagged for a closer look

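CpG-poor genes of chromosome X were outside the comparisons, which used autosomes only, and are listed because more than 3 had a peak in each library. Any count above 3 would have listed them, so the listing supports nothing by itself. Without gradient centrifugation 9 of 435 did (2.07%, interval 0.950 to 3.89%), among them Was, a regulator of actin in blood cells, Sash3, a lymphocyte adaptor, and the kinase gene Araf. In the 50 µL reaction system 34 of 435 did (7.82%, interval 5.47 to 10.8%), including Btk, the kinase of B cell receptor signalling, Il2rg, the common gamma chain of interleukin receptors, Cd40lg, Cxcr3, Sh2d1a and Tlr7. These examples were chosen after the list of genes was seen. The autosomal shares were 4.77% and 12%, and the sex of the animals behind each library is not given in the sources used here.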

How the results depend on the processing

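The share of CpG-poor genes with a peak ranged from 3.95 to 6.59% over 14 alternatives without gradient centrifugation and from 4.59 to 15.8% over 15 in the 50 µL reaction system. It stayed within its counting interval in 4 alternatives for each library. In the order of libraries, it moved to 3.98% and 4.59% with peaks of fold enrichment 4 or more, 4.24% and 9.72% with the summit inside the window, 4.26% and 9.89% with at least 50% of the peak inside, 4.08% and 9.81% with 250 bp on each side, 6.59% and 15.8% with 1000 bp, 3.95% and 10.3% for ratios below 0.30, 5.66% and 13.5% below 0.40, 5.87% and 13.2% with the ratio taken over 2 kb, 5.93% and 14.9% without receptor genes, and 4.15% and 10.3% with peaks of low ratio at the summit. The 50 µL list at equal length gave 5.84%. In every alternative with a CpG-rich value the CpG-rich share was higher, by 10.7 to 17.2 times and 5.28 to 12.2 times. The share of members with the PU.1 site was 4.79% and 2.61% in 100 bp, and 13.8% and 11.2% in 400 bp. No paired analysis was possible because there was 1 library per condition, and no replicate could be left out. Differences between the libraries cannot be told apart from depth, cell number, library quality or animal.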
